A study of Mus musculus with 4 samples.

Results

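Under the deposited time labels, 9 genes of the mouse spinal cord changed in opposite directions between ZT10 and ZT22 in sham-operated and in adrenalectomized mice with a nerve injury. In sham+PSL mice ZT10 was the higher time for *Gdpd3*, *Gm765*, *Cdhr3* and *Cox7b2* and in ADX+PSL mice the lower, and *Abhd1*, *Cyp2j7-ps*, *Cdkn2b*, *Spock3* and *Slc4a10* showed the reverse. The 9 genes were chosen by their measured levels on these same arrays, out of 30222 gene names, as genes with a probe at least 2-fold apart between the times in both operations and in opposite directions. Such a pattern was shown by 27 of the 25012 probes that were well above background on all 4 arrays, 0.108%, and 9 of these 27 probes belong to the 9 genes. How these 9 were taken from the 27 is not set by a stated rule. The genes are carried by 12 of the 39429 probes of the array, and each of these 12 probes had 1 spot. The time ratios in both operations are therefore a description of what was selected, and nothing is read from the counts that follow from the selection.

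All mice were male ICR mice of 5 to 6 weeks, an outbred stock, with partial sciatic nerve ligation (PSL) of the right hindlimb, and the spinal RNA was taken on day 7 after the ligation. Before it the mice had either been adrenalectomized (ADX+PSL) or undergone a sham operation (sham+PSL), so that the injury is common to all groups and no uninjured or untreated group was measured. Saline was the drinking water of the adrenalectomized mice. The arrays of these operations are called sham and ADX arrays below. RNA was taken from slices of the lumbar spinal cord at ZT10 or ZT22, zeitgeber time in hours after lights on. This gives 4 conditions with 1 Agilent 1-colour 60-mer array each, all on 1 slide. The number of mice behind each RNA and the side of the cord it came from are not given in the sources used here. With 1 array per condition there is no replicate check, no test was made between conditions, and each direction within an operation rests on 2 arrays.

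For some genes the time order on the ADX arrays opposes that printed in the study, which treats these genes as about equal between the times in ADX+PSL mice. For *Sgk1*, *Tnnc2* and *Myl1*, as for other genes of its own candidate list, the study gives the time order on the ADX arrays the other way round, and that on the sham arrays as here. Under the deposited labels the log2 ratio of ZT10 over ZT22 on the ADX arrays was 0.34 for *Sgk1*, -0.37 for *Tnnc2* and 0.11 for *Myl1*. These ratios are small in both sources, and the SD over all probes on the ADX arrays was 0.30. The study chose the genes for a lack of time difference in ADX+PSL mice, so no rhythm there is contradicted. Whether the labels of the ADX arrays or the order in that list are exchanged cannot be told apart with the files used here. With the ADX times exchanged, all 9 members would change in the same direction in both operations, and the probes at least 2-fold apart in opposite directions would be the 46, 0.184% of the 25012, that change the same way under the deposited labels. Every sign on the ADX arrays below, and every comparison of sham and ADX arrays at 1 time, rests on the deposited labels.

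Glucocorticoids are released from the adrenal cortex in a daily rhythm that peaks in nocturnal rodents around the onset of darkness, and adrenalectomy removes this source. They act through a nuclear receptor that binds DNA at glucocorticoid response elements, while clock proteins bind E-boxes, D-boxes and ROR elements. Whether the 9 genes share a pathway was not tested. *Gdpd3* encodes a glycerophosphodiester phosphodiesterase with lysophospholipase D activity, which makes lysophosphatidic acid, a lipid whose receptor LPA1 is known for its part in pain after nerve injury. *Abhd1* belongs to the alpha/beta hydrolase domain family and *Cyp2j7-ps* to the Cyp2j cluster of cytochrome P450 genes, some of which epoxidize arachidonic acid.

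The probes of these 3 genes are shown because they are what hybridized, for the member with the largest change and for the members that RefSeq calls pseudogenes. On the mm9 annotation of the array, the *Gdpd3* probe lies at chr7:133914520-133914693 on the plus strand and the *Abhd1* probe at chr5:31256786-31256925 on the plus strand. They span 174 and 140 bases, more than the 60 bases of a probe, so that each is annotated across a splice junction. The *Cyp2j7-ps* probe lies without a gap at chr4:95861914-95861973 on the minus strand. In the RefSeq table *Gdpd3* is protein coding, *Abhd1* a transcribed pseudogene and *Cyp2j7-ps*, listed there as *Cyp2j7*, a pseudogene. A 60-base probe of a family with similar members can take up RNA of relatives, which was not tested. The sequences read 5′ to 3′.
Gdpd3 probe: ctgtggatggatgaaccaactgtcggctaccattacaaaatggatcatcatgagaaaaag
Abhd1 probe: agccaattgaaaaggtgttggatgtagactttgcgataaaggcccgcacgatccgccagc
Cyp2j7-ps probe: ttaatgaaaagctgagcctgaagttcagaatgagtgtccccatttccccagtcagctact

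The region before the start site was searched as a description, since sequence was not part of the selection. Directions shared by several members follow from the selection. The RefSeq promoter table held 7 of the 9 members, all but *Abhd1* and *Cyp2j7-ps*, with 9 promoters of 250 bases before and 50 after the start site. Both strands were searched. The full glucocorticoid response element (AGAACA, any 3 bases, then TGTTCT) was in 0 of the 9 promoters and in 0.00913% of the 32851 promoters of the table. Its short element AGAACA, which the full element contains, was in 19.0% of all promoters and in those of *Gdpd3*, 221 bases before the start site, and *Gm765*, 220 and 122 bases before it. The E-box CACGTG was in 7.15% of all promoters and, among the members, in that of *Cdhr3*, 93 bases before the start site. The letters AGGTCA, searched for as the core of a ROR element without its flanking bases, were in 16.3% of all and in that of *Cox7b2*, 147 bases before the start site. The cAMP element TGACGTCA was in 1.79% of all and in that of *Cdkn2b*, 46 bases before it. The D-box, TTATGTAA or TTACGTAA, was in 1.06% of all and in none of the 9 promoters. A match is a description of letters, and no binding was measured in these data. The promoters of *Gdpd3* (chr7:126766164-126766413, plus strand), *Cdhr3* (chr12:33092876-33093125, minus strand) and *Cdkn2b* (chr4:89311033-89311282, minus strand) are given as the 250 bases before the start site on GRCm38.p6, from RefSeq, with the matched elements in capitals.
Gdpd3 promoter: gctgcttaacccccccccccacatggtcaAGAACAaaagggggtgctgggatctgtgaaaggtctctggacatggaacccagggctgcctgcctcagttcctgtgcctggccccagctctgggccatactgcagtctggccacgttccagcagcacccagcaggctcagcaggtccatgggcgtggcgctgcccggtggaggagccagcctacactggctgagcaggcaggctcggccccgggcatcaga
Cdhr3 promoter: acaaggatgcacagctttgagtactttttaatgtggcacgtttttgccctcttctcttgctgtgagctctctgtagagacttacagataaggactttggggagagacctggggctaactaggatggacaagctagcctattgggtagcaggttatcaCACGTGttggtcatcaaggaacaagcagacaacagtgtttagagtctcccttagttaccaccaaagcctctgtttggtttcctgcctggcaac
Cdkn2b promoter: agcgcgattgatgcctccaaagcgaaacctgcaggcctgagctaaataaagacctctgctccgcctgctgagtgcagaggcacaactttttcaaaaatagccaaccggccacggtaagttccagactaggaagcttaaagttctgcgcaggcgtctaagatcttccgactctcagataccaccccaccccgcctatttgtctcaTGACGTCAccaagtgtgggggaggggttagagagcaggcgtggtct

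Of the 39429 probes, between 65.1% and 70.1% were well above background on an array and none was saturated. Levels are the quantile-normalized intensities deposited by the authors, in arbitrary units, and they compare arrays for 1 probe, not probes with each other. Ratios are log2 of ZT10 over ZT22. The SD of the ratio over all 25012 probes was 0.35 on the sham arrays and 0.30 on the ADX arrays, with medians of 0.01 and 0.00. The spot error beside a ratio is the error that the scanner software gives for the spots of both arrays, combined on the log2 scale. It covers the spot and not the difference between mice.

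*Gdpd3* stood furthest out, at rank 1 of the 27 probes by the smaller of the changes in both operations. Its level was 389.5 on the sham ZT10 array, 26.9 on the sham ZT22 array, 15.8 on the ADX ZT10 array and 669 on the ADX ZT22 array. The levels of the sham ZT22 array and the ADX ZT10 array were both low, the latter close to 12.8, the lowest level called well above background on that array. ZT10 was 14.5-fold over ZT22 on the sham arrays, a log2 ratio of 3.85 with a spot error of 0.30. On the ADX arrays, by the deposited labels, it was 42.4-fold under ZT22, a log2 ratio of -5.41 with a spot error of 0.34. These sizes depend on how the background of the dim spots is handled, and over the alternatives tried the log2 ratio lay between 2.17 and 3.96 on the sham arrays and between -5.40 and -3.10 on the ADX arrays. The RNA comes from whole tissue, in which fewer cells of a type and less RNA per cell cannot be told apart.

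*Abhd1* went the other way, with levels of 136 and 542 on the sham arrays and of 548 and 125 on the ADX arrays, each at ZT10 and then ZT22. The log2 ratio was -2.00 on the sham arrays and 2.13 on the ADX arrays, with a spot error of 0.21 in each. The high levels of the 2 operations lay within 0.02 of each other on the log2 scale and the low levels within 0.12. *Cyp2j7-ps* had levels of 30.7 and 119 on the sham arrays and of 136 and 38.5 on the ADX arrays. Its log2 ratios were -1.96 and 1.82, with spot errors of 0.25 and 0.27. Its low levels make the sizes depend on the background handling. Over the alternatives tried the log2 ratio lay between -2.01 and -0.84 on the sham arrays and between 1.01 and 1.89 on the ADX arrays. *Cyp2j7-ps* was also the gene nearest to *Abhd1* in pattern over the 4 arrays.

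Among the genes of membrane and matrix proteins, *Cdhr3*, a cadherin-related gene known from ciliated airway cells, had levels of 181 and 58.8 on the sham arrays and of 27.1 and 92.8 on the ADX arrays, for the probe that shows the pattern. Its log2 ratios were 1.62 and -1.77, with spot errors of 0.23 and 0.27. Over the alternatives tried they lay between 0.95 and 1.68 on the sham arrays and between -1.77 and -0.73 on the ADX arrays. The probe lies at chr12:33735669-33735728 on mm9. *Spock3*, which encodes the matrix proteoglycan testican-3, had levels of 133 and 329 on the sham arrays and of 326 and 157 on the ADX arrays on a probe at chr8:65835548-65835607. The log2 ratios were -1.31 and 1.06, each with a spot error of 0.21. The gene of a sodium-dependent bicarbonate transporter of neurons and choroid plexus, *Slc4a10*, had levels of 359 and 748 on the sham arrays and of 844 and 397 on the ADX arrays at chr2:62164723-62164782. Its log2 ratios of -1.06 and 1.09, with spot errors of 0.20, were among the nearest to the 2-fold limit. These 3 genes did not share a direction, since *Cdhr3* was the higher at ZT10 on the sham arrays and the other two were the lower.

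*Cdkn2b*, which encodes the CDK4 and CDK6 inhibitor p15, had levels of 91.6 and 262 on the sham arrays and of 196 and 81.9 on the ADX arrays, on a probe at chr4:88952276-88952335. Its log2 ratios were -1.52 and 1.26, with spot errors of 0.21 and 0.22. *Cox7b2* encodes an isoform, known from testis, of a subunit of cytochrome c oxidase. It had levels of 147 and 62.7 on the sham arrays and of 41.9 and 116 on the ADX arrays. Its log2 ratios were 1.23 and -1.47, with spot errors of 0.22 and 0.23. The probe is annotated from 71834459 to 71894699 on chromosome 5, a span of 60241 bases, and thus joins distant exons. *Gm765*, a predicted protein-coding gene, had levels of 132 and 26.8 on the sham arrays and of 25.4 and 77.3 on the ADX arrays, with log2 ratios of 2.30 and -1.61 and spot errors of 0.29 and 0.27, on a probe at chr6:98188048-98188107. As for *Gdpd3*, the sham ZT22 array and the ADX ZT10 array were its low arrays. The lowest levels called well above background there were 18.4 and 12.8, so that the sizes of its ratios depend on the background handling.

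**Figure D1:**
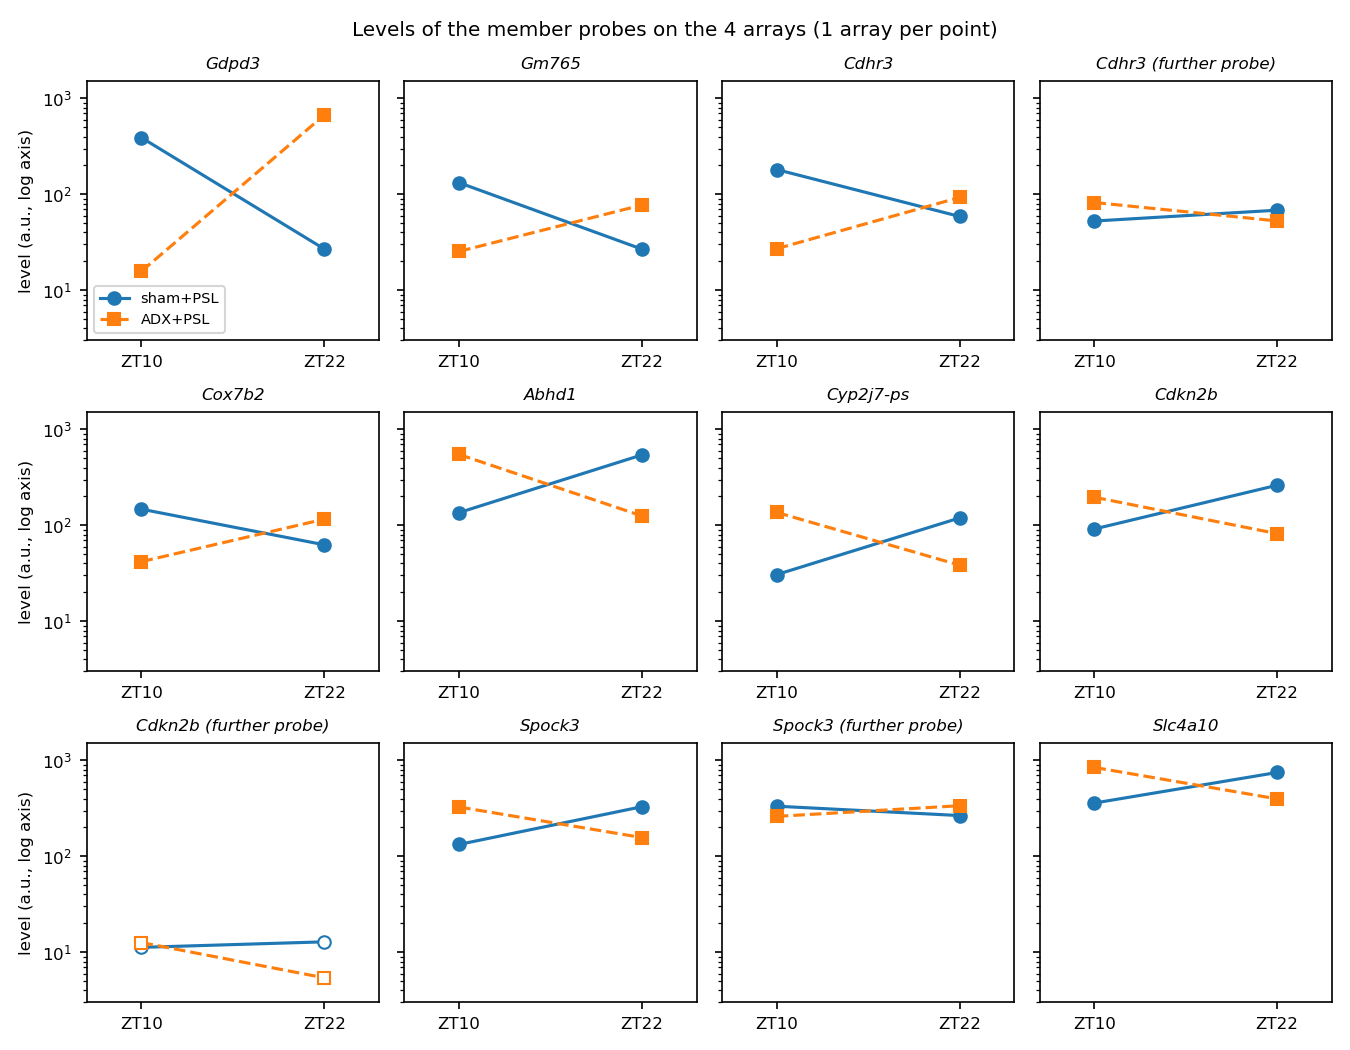
Level of each of the 12 probes of the 9 genes (arbitrary units, log axis) at ZT10 and ZT22, with sham+PSL as circles on solid lines and ADX+PSL as squares on dashed lines, 1 array per point and open symbols for a probe not well above background on any array. The lines cross on the probes that chose the members, most widely for Gdpd3, which ran from 15.8 to 669, and they also cross, the other way and over a smaller range, on the further probes of Cdhr3 and Spock3.

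The limit of 2-fold had members and other genes close to it. *Spock3*, the member nearest inside, had a smaller change of 1.06 on the log2 scale, while the probe nearest inside among all 27 was that of *Gm11536*, with ratios of 1.01 and -1.04. Nearest outside was *S100a8*, which encodes a calcium-binding protein of myeloid cells, with 0.97 and -1.19. Taken 1 operation at a time, ZT10 was at least 2-fold over ZT22 for 0.8% and at least 2-fold under it for 0.932% of the 25012 probes on the sham arrays. On the ADX arrays these were 0.464% and 0.816%. The 9 members are 4 of the higher and 5 of the lower on the sham arrays and the reverse on the ADX arrays, which the selection fixed. Changes in the same direction in both operations were shown by 46 probes at the same limit. When the background was corrected by normexp or not at all, 2 members, *Gdpd3* and *Abhd1*, stayed past 2-fold in both operations, and the other 7 kept their signs with smaller ratios.

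**Figure D2:**
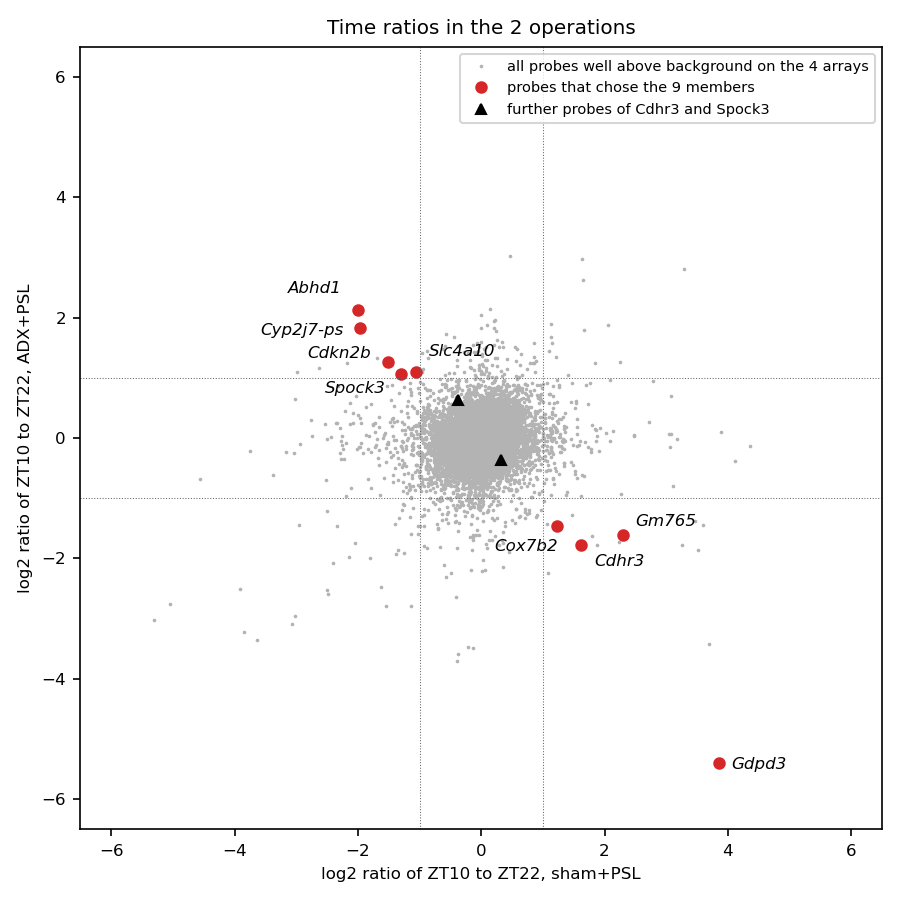
ZT10 over ZT22 on the log2 scale, in sham+PSL (horizontal) and in ADX+PSL (vertical), for the 25012 probes measured on all 4 arrays (grey), the probes that chose the 9 members (red) and the further probes of Cdhr3 and Spock3 (triangles), with dotted lines at 2-fold. Among the members Gdpd3 sits furthest out, at 3.85 and -5.41, and 5 members sit in the upper left corner and 4 in the lower right.

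The levels were next compared across the operations at the same time. At ZT10 all 9 members were at least 2-fold apart between ADX+PSL and sham+PSL, 5 higher and 4 lower on the ADX arrays, where 1.74% of all probes were 2-fold apart in either direction. At ZT22 it was 6 of 9, 2 higher and 4 lower, again beside 1.74% of all probes. The remaining 3 at ZT22 were *Slc4a10* (log2 difference of ADX+PSL from sham+PSL -0.92), *Cox7b2* (0.89) and *Cdhr3* (0.66). These counts use the same 4 levels as the selection, and nothing is read from them. Both ADX levels lay on the same side of both sham levels for 0 of the 9 members and for 35% of all probes, and large changes in opposite directions leave little room for such a separation.

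The same 4 levels were also compared with the ADX times exchanged. The sham level at ZT10 then stands beside the ADX level labelled ZT22, and the sham level at ZT22 beside the ADX level labelled ZT10. The median size of the first difference was 0.33 on the log2 scale over the 9 members (range 0.12 to 0.97), and that of the second was 0.19 (range 0.01 to 1.12). Over all probes the medians were 0.15 and 0.14. At least 2-fold apart were 0 members in the first comparison, beside 1.7% of all probes, and 1 member in the second, beside 2.25%. That member was *Cdhr3*. The 5 members lower at ZT10 on the sham arrays differed by at most 0.33 and 0.42, and the 4 higher at ZT10 on the sham arrays by up to 0.97 and 1.12. These differences use the same 4 levels as the selection, and nothing is read from them. Whether the ADX time labels are exchanged was not tested.

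The levels can also be written as differences of means. The difference of the mean of the ADX levels from that of the sham levels had a median size of 0.26 over the members, and the difference of ZT10 from ZT22 had a median size of 0.12, against 0.11 for each over all probes. The difference of the time ratios divided by 2, which the selection sets at 1 or more in size, had a median size of 1.70 over the members and 0.10 over all probes. *Gdpd3* had the same mean in both operations within 0.01, and a difference of its mean at ZT10 from that at ZT22 of -0.78 on the log2 scale. On the probes that chose the members, the largest difference between operations was that of *Cdhr3*, -1.04, lower on the ADX arrays on average. On the further *Cdhr3* probe this difference was 0.13. With the mean over probes it was -0.45 for *Cdhr3* and -0.46 for *Cox7b2*.

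**Figure D3:**
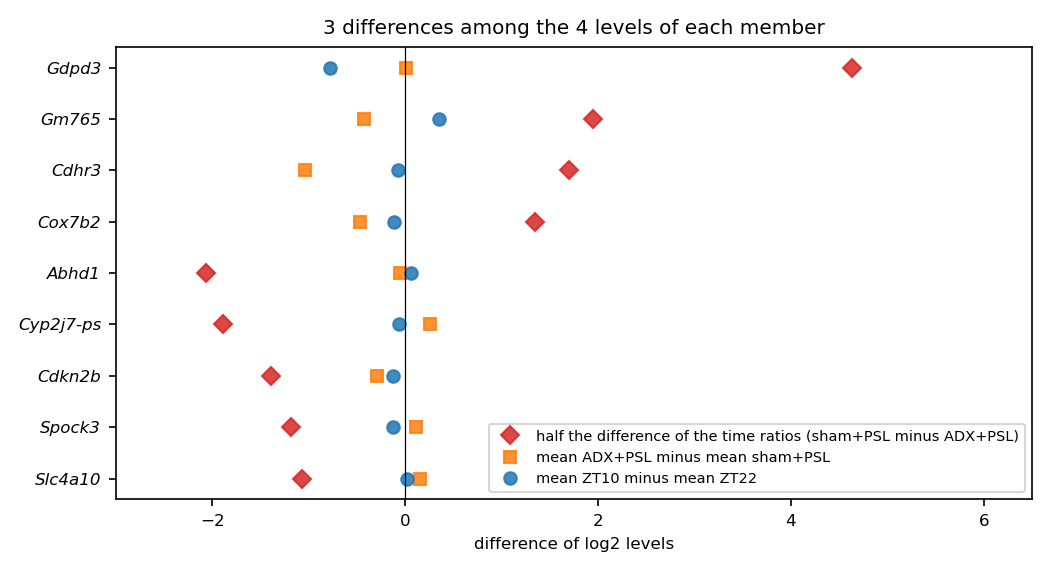
Differences of log2 levels for each member on the probe that chose it: the difference of the time ratios, sham+PSL minus ADX+PSL, divided by 2 (diamonds), mean ADX+PSL minus mean sham+PSL (squares) and mean ZT10 minus mean ZT22 (circles). The diamonds lie at 1.07 or more in size, as the selection requires, and the other symbols lie between -0.46 and 0.35 except the square of Cdhr3 at -1.04 and the circle of Gdpd3 at -0.78.

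A further probe of the same gene is a measurement that the choice of a probe did not use. *Cdhr3*, *Cdkn2b* and *Spock3* have 1 each, and the other 6 genes have none. The further *Cdhr3* probe, whose start lies 17006 bases from the first, had levels of 52.7 and 68.3 on the sham arrays and of 82.1 and 52.8 on the ADX arrays. Its log2 ratios of -0.38 and 0.64, with spot errors of 0.24 and 0.25, had the opposite signs to those of the first probe. The further *Spock3* probe starts 284 bases from the first and read 333 and 266 on the sham arrays and 261 and 337 on the ADX arrays. Its ratios of 0.32 and -0.37, each with a spot error of 0.21, also had the opposite signs. The further probe of *Cdkn2b* reached the background limit on none of the arrays, with levels between 5.42 and 12.8, and gives no ratio. For *Cdhr3* and *Spock3* the pattern is thus that of a probe and not of every probe of the gene, and with the mean over probes neither reached 2-fold (0.62 and -0.57 for *Cdhr3*, -0.49 and 0.34 for *Spock3*). The *Cdhr3* probe with the pattern is annotated to a cDNA clone and the further probe to the RefSeq transcript of the gene, while both *Spock3* probes are annotated to the same transcript. Which transcript each probe reads was not tested.

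The 9 genes lie on 7 chromosomes. *Cdkn2b* and *Cyp2j7-ps*, with the same direction, lie 6.91 Mb apart on chromosome 4, and *Abhd1* and *Cox7b2*, with opposite directions, 40.6 Mb apart on chromosome 5. Of the other opposite probes the nearest to a member were those of *Dnajb6*, 1.14 Mb from *Abhd1*, with 1.79 and -1.62 on 1 probe, the reverse of *Abhd1*.

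For each gene near a member only the brightest probe was read, a measured probe where available. Within 250 kb of a member probe lie 83 other gene names, of which 70 were measured on all arrays. The median log2 ratio of these 70 was 0.07 on the sham arrays and -0.03 on the ADX arrays. At least 2-fold in opposite directions changed 0 of the 70, beside 0.108% of all probes, and nothing is read from this count. *Sult1a1*, a phenol sulfotransferase gene 98.0 kb from *Gdpd3*, was the only measured neighbour past 2-fold, and it was higher at ZT10 in both operations, with 1.14 on the sham arrays and 1.57 on the ADX arrays. *Mapk3*, which encodes the kinase ERK1, lies 5.6 kb from the *Gdpd3* probe and had ratios of -0.02 and -0.05. On the other side *Ypel3*, 9.26 kb away, had 0.28 and -0.19. *Preb* lies 0.592 kb from the *Abhd1* probe and had levels of 6030.1 and 5239 on the sham arrays and of 5910.0 and 6275 on the ADX arrays, with ratios of 0.20 and -0.09. Of the 13 neighbours not well above background on all arrays, *Cdkn2a*, the inhibitor gene beside *Cdkn2b*, had levels between 8.94 and 31.0 and ratios of -1.54 on the sham arrays and -1.15 on the ADX arrays, without the change of sign of *Cdkn2b*. *Dpp4*, a dipeptidyl peptidase gene 5.34 kb from *Slc4a10*, had levels of 110.2 on the sham ZT22 array and of 33.0 or less on the other arrays, ratios of -3.32 and -1.09. *Emilin1*, a matrix glycoprotein gene 34.1 kb from *Abhd1*, had levels between 3.57 and 20.3, ratios of -0.34 and 2.51. These ratios are uncertain, since the genes were not well above background on every array. *Spock3* had no neighbour within that distance on the array.

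**Figure D4:**
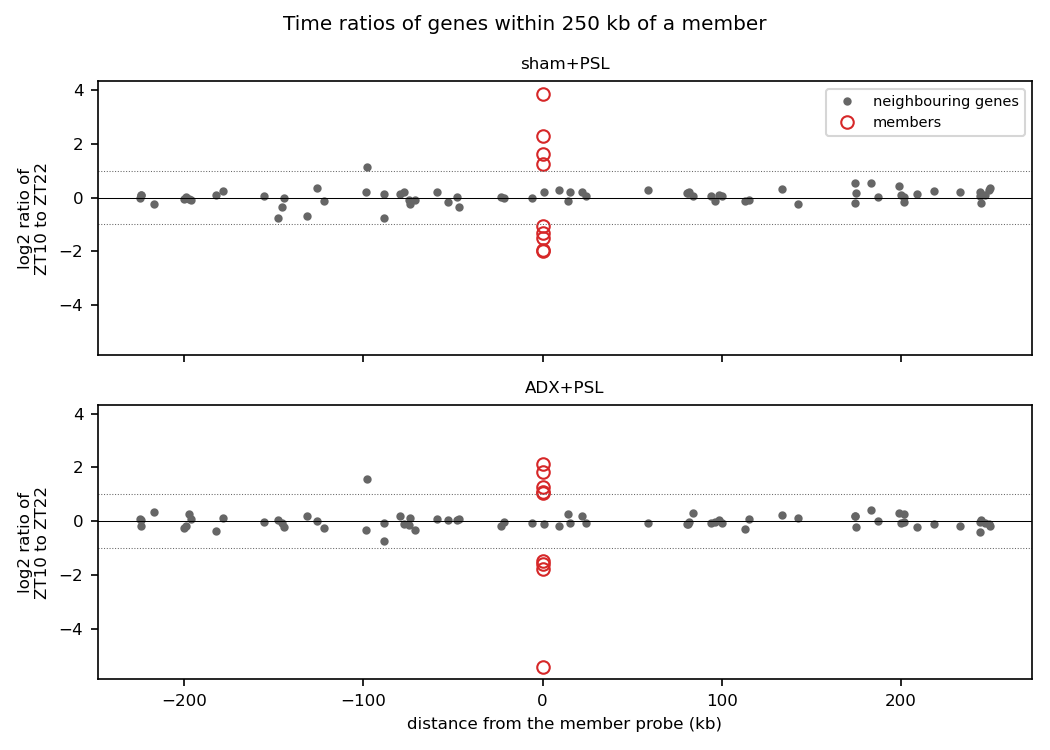
ZT10 over ZT22 on the log2 scale (vertical) in sham+PSL (upper panel) and ADX+PSL (lower panel) of the 70 measured genes within 250 kb of a member (filled points) against their distance in kb from the member probe, with the members at 0 as open circles and dotted lines at 2-fold. Sult1a1, with 1.14 and 1.57, is the measured neighbour that lies beyond 2-fold.

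Relatives of the members were compared by gene lists, on the brightest measured probe of each gene. None of these probes changed at least 2-fold in opposite directions while being measured on all arrays. Over all probes the share was 0.108%, and nothing is read from this count. Further probes of the relatives were not looked at. Among the other glycerophosphodiesterase genes, 4 of 5 were measured and 0 passed 2-fold: *Gde1*, *Gdpd1*, *Gdpd2* and *Gdpd5* had sham ratios between -0.23 and 0.03. Of 13 genes of lysophospholipid enzymes and receptors, 10 were measured and 1 was at least 2-fold lower at ZT10 on the sham arrays. This was *Lpar1*, the gene of the receptor LPA1, with levels of 385 and 1273 on the sham arrays and of 418 and 351 on the ADX arrays, a ratio of -1.72 against 0.25. Its high array, the sham ZT22 array, was an array on which *Gdpd3* was low, while on the other array with low *Gdpd3*, the ADX ZT10 array, *Lpar1* was not high. *Enpp2*, which encodes autotaxin, the main enzyme that makes extracellular lysophosphatidic acid, had -0.27 and -0.26. *Lpar5*, another lysophosphatidic acid receptor gene, had levels of 42.5, 18.4, 21.7 and 58.7 in the order of the conditions above, but was not well above background on the sham ZT22 array and is not counted.

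Of the ABHD hydrolase genes 17 of 19 were measured and 0 passed 2-fold in either operation, and of 7 Cyp2j genes 5 are on the array, 4 were measured and again 0 passed. In the cadherin-related family 3 of 4 were measured, and *Cdhr4* was lower at ZT10 on the sham arrays (-1.66, and -0.45 on the ADX arrays). Of the G1 cell cycle inhibitors and their targets 10 of 12 were measured. *Cdkn2c*, the gene of the related inhibitor p18, was the only gene of that list past 2-fold, with -1.11 on the sham arrays and -0.80 on the ADX arrays. Its direction was that of *Cdkn2b* on the sham arrays and not on the ADX arrays. In the SPOCK and SPARC family, 7 of 7 measured, *Smoc2* was lower at ZT10 on the sham arrays (-1.05, and 0.06 on the ADX arrays). Among the SLC4 transporters, 9 of 9 measured, *Slc4a1*, the anion exchanger of red blood cells, was higher at ZT10 on the sham arrays (1.24, and 0.25 on the ADX arrays). Of the 17 cytochrome c oxidase subunits 16 were measured and 0 passed 2-fold, and *Cox7b*, the paralogue of *Cox7b2*, had 0.04 and 0.14.

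The members were set beside genes known to follow the clock and glucocorticoids. Of 13 clock genes 12 were measured, and 5 of these had time ratios of opposite sign in the operations, which was so for 48.5% of all probes. Of the 12, 1 gene passed 2-fold on the sham arrays and 1 on the ADX arrays. *Nr1d1*, a repressor of the clock, had levels of 715 and 352 on the sham arrays and of 189 and 319 on the ADX arrays, ratios of 1.02 and -0.75. *Dbp*, a clock output factor, had 22527 and 16046 on the sham arrays and 6433 and 13262 on the ADX arrays, ratios of 0.49 and -1.04. The other genes of opposite sign were *Per2* (0.12 and -0.30), *Bhlhe41* (0.08 and -0.23) and *Clock* (-0.06 and 0.21). *Per1* had the same sign, with 0.50 and 0.41, and none of the 12 reached 2-fold in both operations. Of the 8 glucocorticoid targets, 8 were measured and *Sgk1*, the kinase gene on which the study centred, was the only one past 2-fold, with 1.15 on the sham arrays and 0.34 on the ADX arrays. The sign of this small ratio on the ADX arrays opposes that of the study, which treats *Sgk1* as about equal between the times there, as said above. Whether the members' levels move with the clock or with glucocorticoids was not tested.

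For the brightest measured probe of each member the 3 genes with the most similar pattern were taken by the Euclidean distance of log2 levels centred over the 4 arrays. Nearest to *Slc4a10* were *Cd109* (distance 0.15), *Spock3* (0.18) and *Oas2* (0.26). The brightest *Spock3* probe is the further probe, nearest to *Gm4470* (0.02), *Pms2* (0.02) and *Sh3yl1* (0.03), which changed as little as it did. The *Spock3* probe with the pattern, looked at after its values were seen, had *Slc4a10* (0.18), *Oas2* (0.26) and *Cd109* (0.28) as its nearest. *Abhd1* and *Cyp2j7-ps* were nearest to each other, at 0.38, and next to both was a probe named only by a transcript, at 0.62 and 0.59. The last of the 3 was *Cdkn2b* (0.74) for *Abhd1* and *Spock3* (0.73) for *Cyp2j7-ps*. Nearest to *Cdkn2b* was the same transcript-named probe (0.17), then a probe without a gene name (0.33) and *Ifi27l2a* (0.39). *Cox7b2* had *S100a8* (0.29), *S100a9* (0.30) and a probe without a gene name (0.45), and *Gm765* had *5430410E06Rik* (0.16), *Dnajb6* (0.59) and *F8* (0.65). That gene, *5430410E06Rik*, was also nearest to *Cdhr3* (0.65), followed by *Cox7b2* (0.67) and *Tchhl1* (0.72). *Gdpd3* had no gene as near, with *H2-DMb1* at 1.53, *H2-D1* at 2.58 and *H2-Q7* at 2.66. These 3 major histocompatibility genes, not members, also changed more than 2-fold in opposite directions, with the signs of *Gdpd3*. Their sham and ADX ratios were 3.69 and -3.42 for *H2-DMb1*, 3.51 and -1.86 for *H2-D1*, and 3.26 and -1.78 for *H2-Q7*. These distances describe 4 arrays, with no replicate behind any of them. They use the same levels as the selection, so that members of the same direction lie near each other in part by the selection. They are not scaled, and a probe with large changes, such as that of *Gdpd3*, lies far from most genes by construction.

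The tissue was checked with marker genes. Of 8 neuronal markers 8 were measured on all arrays, with sums of levels between 228694 and 256098, and of 6 oligodendrocyte markers 6, between 364192 and 395591. The 4 oligodendrocyte precursor markers summed to between 15434 and 18854 and the 6 microglial markers to between 71829.7 and 89958, and none of these passed 2-fold. The 6 astrocyte markers summed to between 35903 and 48308, and of them *Gfap*, the glial filament gene of reactive astrocytes, passed 2-fold on the ADX arrays (-1.07, and -0.16 on the sham arrays). Markers of red blood cells moved with time on the sham arrays, with sums of 135912 and 18767 on the sham arrays and of 95075 and 89810 on the ADX arrays, each at ZT10 and then ZT22, and on the sham arrays 6 of 6 were 2-fold or more higher at ZT10, the haemoglobin genes *Hba-a1*, *Hba-a2*, *Hbb-b1* and *Hbb-b2* by 2.73 to 3.10 on the log2 scale, *Alas2* by 3.05 and *Slc4a1* by 1.24. Those of skeletal muscle, 3 of 6 measured on all arrays, summed to 1080 on the sham ZT10 array and to between 128 and 133 on the other arrays, with sham ratios of 4.11 for *Tnnc2*, 3.90 for *Myl1* and 1.17 for *Acta1*. Meningeal fibroblast markers, 5 of 6 measured, summed to 16324 and 13466 on the sham arrays and to 5054 and 5263 on the ADX arrays, and *Lum* among them passed 2-fold on the sham arrays (1.18, and -0.76 on the ADX arrays). Of the 4 Schwann cell markers *Prx* was measured, with levels of 466 and 247 on the sham arrays and of 40.9 and 36.3 on the ADX arrays. The part of these cells in the members' levels was not tested. For *Cdhr3* and *Slc4a10* the cells known to express them were also looked at. Ependymal and ciliated cell markers, 8 of 10 measured, summed to 5962 and 6169 on the sham arrays and to 7090 and 5542 on the ADX arrays. Of 7 choroid plexus markers 5 were measured, with sums between 507 and 657. Of these *Kcnj13*, a potassium channel gene, passed 2-fold on the sham arrays, with levels of 74.2 and 225 on the sham arrays and of 104 and 103 on the ADX arrays, ratios of -1.60 and 0.01. *Folr1* was also lower at ZT10 on the sham arrays (-0.28), while *Clic6* (0.35), *Slc4a5* (0.23) and *Kl* (0.10) were higher. The list thus had no common direction on the sham arrays. *Slc4a10* was lower at ZT10 on the sham arrays and higher on the ADX arrays, and the part of these cells in its level was not tested. *Ttr*, which defines choroid plexus, reached the background limit on none of the arrays, with levels of 10.6 or less, and the slices were of lumbar cord. The other genes of that list are therefore not read as a measure of choroid plexus.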

How the data were processed

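Total spinal RNA of 4 conditions was hybridized in Cy3 to 1 Agilent whole mouse genome array each. The authors deposited, per array, spot intensities from Feature Extraction, background-subtracted and detrended within the array, and a table of linear intensities that they quantile-normalized across the 4 arrays, 1 value a probe. The labels name Feature Extraction 9.5.1.1 and the file headers 10.7.1.1. Probe coordinates and gene names are those of the deposited annotation (mm9).

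Levels are those of the authors' normalized table, and log2 ratios were taken without a pseudocount. A probe was counted as measured when at least 0.5 of its spots were flagged well above background on each of the 4 arrays. For genes of a list or neighbourhood the brightest probe was used. Ratios of at least 2-fold were counted, and no test was made with 1 array per condition. The share of all 25012 measured probes past the same limit is given where a comparison is first counted. All probes of every member are named, and so are the 3 nearest in pattern, measured neighbours within 250 kb and measured list genes past 2-fold, and the probes at the limit; further names were chosen after their values were seen. Groups follow the deposited labels, and an exchange of the ADX times was added as an alternative after the data were seen. The members and the lists were chosen with earlier results of these data known. A marker sum adds the levels of the genes measured on all arrays. The counting step was tested on simulated data. R 4.3.3 with limma 3.58.1 gave the alternatives from the scanner signals (other normalizations, normexp with an offset of 50, no background correction, outlier spots left out), and pandas 2.3.3 and numpy 2.4.6 under Python 3.11.15 the rest. Promoters came from a RefSeq table on GRCm38.p6. No genome was used here, and coordinates of the builds were not combined.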

Additional observations from a re-analysis of the deposited data

Results flagged for a closer look

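For each of the 9 members the time ratio had opposite signs in both operations, which is how they were chosen and which rests on the deposited time labels of the ADX arrays. The difference was not tested, since each condition has 1 array. The log2 ratio on the sham arrays minus that on the ADX arrays was 9.26 for *Gdpd3*, 3.91 for *Gm765*, 3.40 for *Cdhr3* and 2.70 for *Cox7b2*. It was -4.13 for *Abhd1*, -3.78 for *Cyp2j7-ps*, -2.78 for *Cdkn2b*, -2.36 for *Spock3* and -2.15 for *Slc4a10*. For *Cdhr3* and *Spock3* a further probe of the gene had ratios of the opposite signs.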

How the results depend on the processing

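The 9 members had opposite signs in both operations under each of the 7 alternatives of normalization, background correction and outlier spots, and of 126 ratios under these alternatives none changed sign. The alternatives reprocess the same scans, and members chosen at 2-fold leave little room for a change of sign, so this is no replication. Leaving out outlier spots gave the same 18 ratios as quantile normalization of the scanner signal. With normexp, and likewise when the mean signal was left uncorrected for background, 2 members and 10 of all probes were at least 2-fold in both operations, *Gdpd3* and *Abhd1* being the members, and 15 and 16 of the 18 ratios moved by more than their spot error. Without normalization between arrays 7 members passed, without *Slc4a10* and *Spock3*, and with the mean over the probes of a gene 7 passed, without *Cdhr3* and *Spock3*. At a limit of 3-fold 5 members and 11 of all probes passed, and at 1.5-fold 9 members and 122 of all probes. Requiring a signal well above background only on the brighter array of each operation gave 9 members and 100 of all probes. The count of members with both ADX levels on the same side of both sham levels was 0 in each normalization and background alternative. Over the alternatives the *Gdpd3* ratio lay between 2.17 and 3.96 on the sham arrays and between -5.40 and -3.10 on the ADX arrays, and that of *Abhd1* between -2.03 and -1.50 and between 1.74 and 2.14. The smaller ratios come with corrections that leave or add signal to dim spots, by construction. With the times of the ADX arrays exchanged, an alternative chosen after seeing the data, 0 members and 46 of all probes were opposite and 9 of 9 members changed the same way in both operations, while the count of members with both ADX levels on the same side stayed at 0. No paired analysis was possible because each condition has 1 array, and for the same reason no array could be left out.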
